A study of Homo sapiens with 11 samples.

Results

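ALL-SIL and HPB-ALL, the lines in which a TLX homeobox gene is rearranged, were compared with the other 9 of 11 T-cell acute lymphoblastic leukemia (T-ALL) cell lines. They were chosen by cell line name, ALL-SIL for a rearranged TLX1 and HPB-ALL for a rearranged TLX3, and the values of both are given singly. For each line RNA was run on 1 Affymetrix array (HG U133 Plus 2.0), and neither TLX gene has a second line as a replicate. The submitters labelled both TLX lines NKL-positive, a status shared with CCRF-CEM, LOUCY, PEER and JURKAT, whereas SUP-T1, CML-T1, MOLT-14, MOLT-4 and MOLT-16 were labelled NKL-negative. All are established leukemia lines in culture without a stated treatment, and p-values measure the spread between lines. Values are RMA log2 expression, on which a difference of 1 unit is a change by a factor of 2, and where a gene has several probe sets the one highest in the mean of all lines stands for it. The lower quartile of an array lay between 3.45 and 3.60, and values near it have no order among them.

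TLX1 and TLX3 encode homeodomain transcription factors of the NKL subclass, which act in embryonic development and are silent in blood cell formation. In T-ALL, chromosomal rearrangements place them next to regulatory regions that are active in T-cells, and leukemias with an active TLX gene typically resemble cortical thymocytes. Homeodomain proteins of this subclass can recruit corepressors of the TLE family, and proteins of the TALE class, such as MEIS and PBX, serve homeodomain factors as cofactors on DNA.

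TLX1 stood at 9.30 in ALL-SIL and at 3.11 in HPB-ALL, and at 3.21 to 5.14 (median 4.16) in the other 9 lines. TLX3 stood at 7.92 in HPB-ALL and at 3.89 in ALL-SIL, and at 2.88 to 3.51 (median 3.32) in the others. Thus each line was high in the gene that its name stands for, and the level of the other TLX gene was near background. TLX2, the third member of the family, stood at 4.28 in ALL-SIL and 3.20 in HPB-ALL, within the other lines at 2.96 to 6.22 (median 5.73). The T-cell identity of the lines was checked by CD3D, a chain of the T-cell receptor complex, which stood at 13.13 in ALL-SIL, at 13.44 in HPB-ALL and at 12.64 to 13.28 in the others. CD2, another T-lineage surface marker, was at 4.81 in ALL-SIL and 9.97 in HPB-ALL, between 4.13 and 10.89 in the others.

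Other homeobox genes of the NKL subclass stood out in HPB-ALL, defined as above the array median and at least 2 units over the median of the remaining 10 lines. MSX1, a regulator of craniofacial and limb development, was at 6.95 in HPB-ALL and at 3.49 in ALL-SIL, while LOUCY reached 8.04 and JURKAT 7.69. Its second probe set was at 4.28 in HPB-ALL, inside the range of 3.76 to 5.29. DLX2, which acts in forebrain and jaw development, reached 10.86 in HPB-ALL at its second probe set, against 3.31 in ALL-SIL and at most 7.57 (CML-T1) in the others. At the DLX2 probe set with the highest mean, HPB-ALL was at 6.24, level with the highest of the others. In ALL-SIL, TLX1 alone among the 34 measured NKL genes stood out. Over these 34 genes, 11 were higher and 23 lower in the TLX lines, with a median difference of −0.23 against −0.02 over all 19775 genes.

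**Figure D1:**
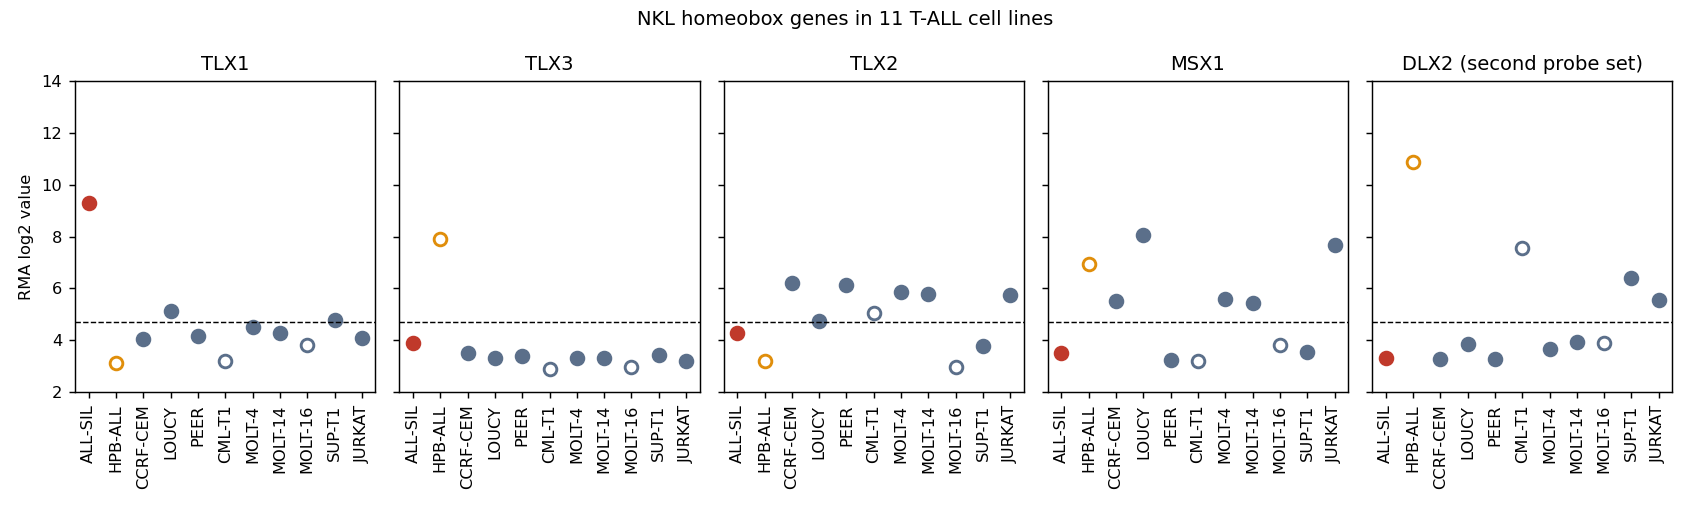
RMA log2 values (y-axis) of NKL homeobox genes in the 11 lines (x-axis), with ALL-SIL in red, HPB-ALL in orange and the other 9 lines in blue. Open circles are the 3 lines with poly-A spike-in controls at background and the dashed line is the median of the array medians; TLX1 is high in ALL-SIL (9.30) and TLX3 in HPB-ALL (7.92).

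The arrays differed in their controls. Poly-A spike-in transcripts, which are added before labelling, read at background (3.0 to 3.14) in CML-T1, MOLT-16 and HPB-ALL, whereas ALL-SIL and the remaining 7 lines read 5.96 to 9.48, so that 1 TLX line lies in each set. Differences with a term for these sets, or of a TLX line against the lines of its own set, are therefore given beside the called genes and some other results. For most genes and lists they are not given. Hybridization controls were lowest in ALL-SIL, at 7.28 against 9.50 in HPB-ALL and 8.77 to 10.04 in the other 9, and the part of this in its low values was not tested. The 3' minus 5' difference of ACTB, a measure of RNA integrity, was 0.56 in ALL-SIL and 0.94 in HPB-ALL, inside the 0.17 to 1.17 of the others (exact permutation p = 0.691, two-sided).

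Of 54613 probe sets, 4 passed limma's test at an adjusted p under 0.05 (0.00732%), with 2 higher in the TLX lines (0.00366%) and 2 lower (0.00366%). They belong to TLE4, BMPR1B, ZNF404 and CLUHP3. Without adjustment, a p under 0.05 was reached by 1220 probe sets in the upward (2.23%) and 753 in the downward direction (1.38%). Counted by the 1 probe set per gene, 3 of 19775 genes were called (0.0152%). The promoters of the called genes that the RefSeq promoter table holds are printed here, from 250 bases before to 50 bases after the start, because these genes carry the comparison. They lie in GRCh38.p14 at chr9:79571715-79572014 on the + strand for TLE4, chr4:94757705-94758004 on the + strand for BMPR1B and chr19:43883915-43884214 on the - strand for ZNF404. Capitals would mark TAATTG or TAAGTG, letters known from the sites of NKL homeodomain proteins, on either strand, and none of the 3 promoters holds them.
TLE4 promoter: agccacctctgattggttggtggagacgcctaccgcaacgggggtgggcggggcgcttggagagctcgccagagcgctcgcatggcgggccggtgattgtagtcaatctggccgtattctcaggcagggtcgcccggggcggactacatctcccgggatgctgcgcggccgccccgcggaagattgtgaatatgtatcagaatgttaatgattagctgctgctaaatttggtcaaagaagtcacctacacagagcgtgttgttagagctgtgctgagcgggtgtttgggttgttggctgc
BMPR1B promoter: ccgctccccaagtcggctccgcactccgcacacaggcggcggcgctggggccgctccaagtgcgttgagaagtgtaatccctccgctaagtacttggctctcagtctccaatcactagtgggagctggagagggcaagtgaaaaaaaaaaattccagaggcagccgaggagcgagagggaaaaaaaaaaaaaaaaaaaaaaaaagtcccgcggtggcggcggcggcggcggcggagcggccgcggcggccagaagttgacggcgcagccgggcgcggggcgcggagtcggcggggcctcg
ZNF404 promoter: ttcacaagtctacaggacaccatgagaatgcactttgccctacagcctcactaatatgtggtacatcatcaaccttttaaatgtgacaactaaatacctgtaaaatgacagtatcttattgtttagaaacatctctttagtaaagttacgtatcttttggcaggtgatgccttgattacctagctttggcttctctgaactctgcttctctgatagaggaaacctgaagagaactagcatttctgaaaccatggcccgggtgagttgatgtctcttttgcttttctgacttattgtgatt

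TLE4, a corepressor of the Groucho family that has no DNA-binding domain of its own, fell in both TLX lines. It stood at 3.49 in ALL-SIL and 4.38 in HPB-ALL, and between 7.77 and 9.31 (median 9.0) in the other 9 lines, so that the groups lie far apart. The difference was −4.83 (SE 0.41, limma adjusted p = 0.00288). ALL-SIL differed from the other lines with poly-A signal by −5.39, and HPB-ALL from CML-T1 and MOLT-16 by −4.0. With the poly-A term the difference was −4.79 (limma adjusted p = 0.0108). With ALL-SIL as the only TLX line it was −5.28 (limma adjusted p = 0.00704) and with HPB-ALL alone −4.39 (limma adjusted p = 0.00523). All 5 probe sets of TLE4 were lower in the mean of the TLX lines, and at 4 of them both TLX lines lay below every other line. ALL-SIL was near the lower quartile of its array, so that its difference is a lower bound. Against the other NKL-positive lines alone the difference was −4.97 (limma adjusted p = 0.0872), and the mean over the 5 probe sets differed by −2.99 (limma adjusted p = 0.155).

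BMPR1B, a type I receptor for bone morphogenetic proteins, was called higher at 1 of its 3 probe sets. There it stood at 6.70 in ALL-SIL and 7.0 in HPB-ALL, and between 2.92 and 4.09 (median 3.25) in the other lines. No other line came near the TLX lines at this probe set. The difference was 3.55 (SE 0.31, limma adjusted p = 0.00288), 3.47 for ALL-SIL and 3.45 for HPB-ALL within their own poly-A sets, and the adjusted p with the poly-A term was 0.0108 (limma). The probe set with the highest mean stood at 6.14 in ALL-SIL and 6.04 in HPB-ALL against 3.09 to 4.43, again above every other line, with a difference of 2.49 (SE 0.37) that did not pass the test (limma adjusted p = 0.121). It passed against the other NKL-positive lines (2.87, limma adjusted p = 0.0427) and with floored values (2.32, 0.0255), and the mean over all 3 probe sets differed by 2.31 (0.019). At the remaining probe set, ALL-SIL with 3.74 lay inside the 3.02 to 3.82 of the others and HPB-ALL was at 4.68. As the other lines were near background, the difference at the called probe set is a lower bound.

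ZNF404, a gene for a zinc finger protein, stood at 6.29 in ALL-SIL and 5.69 in HPB-ALL, and between 2.70 and 4.01 (median 2.81) in the others. The highest of the others was PEER, and without it the rest did not pass 3.04. The gene rose by 3.05 (SE 0.33, limma adjusted p = 0.0151), with 0.0384 under the poly-A term. The call was lost, at differences of 2.77 to 3.35, against the other NKL-positive lines (limma adjusted p = 0.411), among lines with poly-A signal (0.0994) and lines without (0.443), without MOLT-14 (0.0504) and with array weights (0.0641). CLUHP3, a pseudogene of the mitochondrial biogenesis gene CLUH, fell by 3.29 (SE 0.34, limma adjusted p = 0.0109), with 4.22 in ALL-SIL, 3.94 in HPB-ALL and 6.53 to 7.84 (median 7.55) in the others. Its 3 probe sets had the same sign. At those not called, ALL-SIL was at 5.08 and 3.85, inside the 4.83 to 6.13 and 3.67 to 6.36 of the others. Signal of a pseudogene cannot be separated with certainty from that of its parent gene. CLUHP3 was not called without HPB-ALL (−3.15, limma adjusted p = 0.0705), among lines with poly-A signal (−3.20, 0.0734) and lines without (−3.24, 0.534), against the other NKL-positive lines (−3.17, 0.259) or with the mean over its probe sets (−1.80, 0.155).

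**Figure D2:**
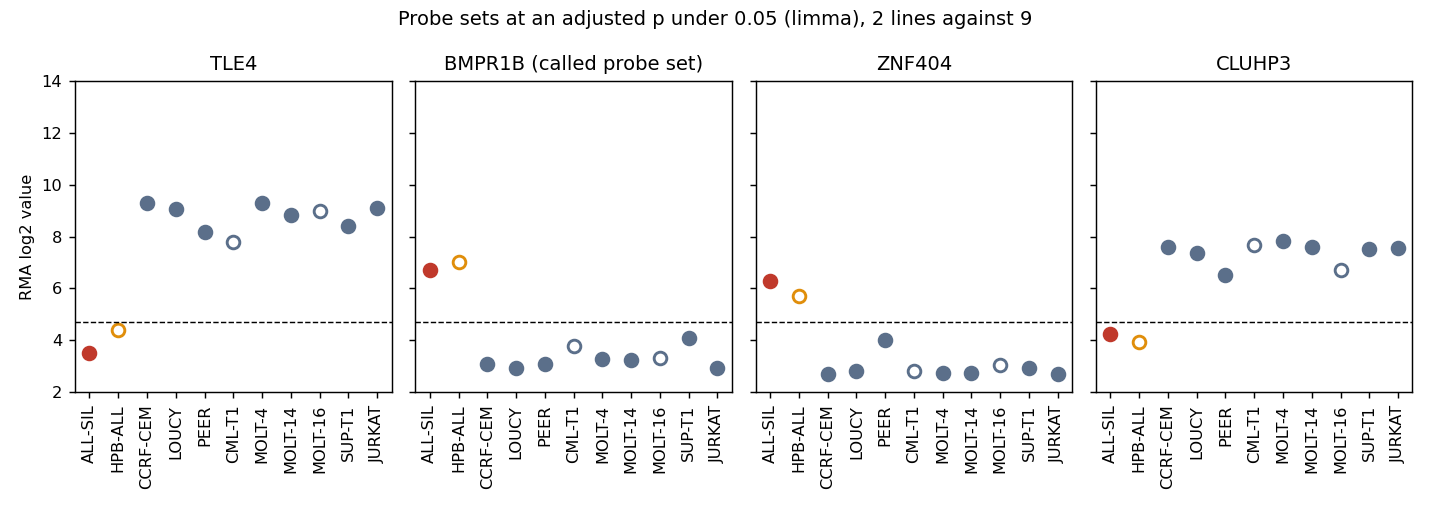
Expression (RMA log2 value, y-axis) at the 4 probe sets with a limma adjusted p under 0.05 in the 11 lines (x-axis), with ALL-SIL in red, HPB-ALL in orange, the other 9 lines in blue and open circles for lines with poly-A controls at background level. In each panel both TLX lines lie apart from the others, for TLE4 at 3.49 and 4.38 against 7.77 to 9.31.

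Among the corepressors and cofactors, TLE4 was called and the other 13 of 14 measured members were not, beside 3 of all 19775 genes (0.0152%). TLE1 was at 4.48 in ALL-SIL and 8.46 in HPB-ALL (others 4.76 to 9.20), TLE2 at 5.14 and 4.47 (others 4.85 to 8.38) and TLE3 at 8.47 and 8.10 (others 7.50 to 8.99). ALL-SIL was thus low in TLE1, and HPB-ALL was not. At the second TLE2 probe set both TLX lines, at 3.34 and 3.26, lay below the 3.70 to 6.85 of the others. MEIS2, a TALE homeodomain cofactor, stood at 8.29 in ALL-SIL and 8.58 in HPB-ALL, and between 3.32 and 8.05 (median 4.71) in the others, of which the highest came close. Its difference of 3.31 (SE 1.09) did not pass the test (limma adjusted p = 1). TGIF1, a TALE repressor of TGF-beta and retinoid signals, was at 8.02 and 7.63 against 4.09 to 7.41. Over the 14 members, 6 were higher and 8 lower, with a median difference of −0.10, beside 9497 higher and 10278 lower of all genes.

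Of 19775 genes, 260 had both TLX lines above all other 9 (1.31%) and 247 had both below (1.25%), in total 507 (2.56%). If the lines were interchangeable, each of the 55 pairs of lines would be equally likely to lie above all others. Any given pair would then do so in a fraction of 0.0182 of genes, and lie below in the same fraction. The observed 1.31% and 1.25% are both lower than that fraction, so these counts alone do not show a pattern shared by the TLX lines. With each array centred on its median the numbers were 371 above and 190 below, and with values floored at their 25th percentile (3.51) 247 (1.25%) and 178 (0.9%). Except for TLE4 and ZNF404, none of the 20 genes described from this set passed the test over all probe sets.

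On the upper side, CSMD1, a large membrane protein with complement control domains, had the widest mean difference. It stood at 9.49 in ALL-SIL and 10.25 in HPB-ALL, and between 2.92 and 7.29 (median 3.26) in the others. The difference was 5.84 (SE 1.08, limma adjusted p = 0.412), with 6.56 (limma adjusted p = 0.0209) against the other NKL-positive and 5.27 (limma adjusted p = 1) against the NKL-negative lines. The mean of the TLX lines was higher at 5 of 5 CSMD1 probe sets, but ALL-SIL was not high at each. At another probe set HPB-ALL was at 9.62 and ALL-SIL at 3.52, inside the 3.08 to 4.09 of the others. At a further probe set ALL-SIL was at 4.0, below the highest of the others at 4.37. PABPC4L, a relative of poly(A)-binding proteins, was at 9.36 and 8.24 against 2.78 to 8.01 (median 3.11). Its difference of 4.66 (SE 1.43) had a limma adjusted p of 1. It was 5.70 (limma adjusted p = 0.00925) against the NKL-negative and 3.35 (limma adjusted p = 0.802) against the other NKL-positive lines. In both genes the other lines were mostly near background, with a few high ones. ACSL1, a synthetase that activates long-chain fatty acids, was at 7.54 in ALL-SIL and 8.45 in HPB-ALL against 2.90 to 6.33. BACE2, a membrane protease, was at 8.96 and 9.65 against 3.79 to 8.56. At another BACE2 probe set both TLX lines, at 6.38 and 6.33, lay below CML-T1 at 6.86. At a further BACE2 probe set ALL-SIL, at 8.01, lay below LOUCY at 8.19. TLR5, the receptor for flagellin, was at 6.48 and 8.47 against 3.97 to 6.44. ALL-SIL passed the highest of the others narrowly for TLR5. P2RX7, an ion channel gated by extracellular ATP, was at 7.56 and 7.69 against 3.02 to 7.33. At its second probe set HPB-ALL, at 5.69, lay below PEER at 6.02. The antisense transcript SNTG2-AS1 was at 9.63 and 9.88 against 3.08 to 9.16. PON1, a paraoxonase, was at 9.16 in HPB-ALL, whereas ALL-SIL with 3.85 was barely above the others at 3.25 to 3.74, and without ALL-SIL its limma adjusted p was 1.08e-05. For ACSL1, BACE2, TLR5, P2RX7, SNTG2-AS1 and PON1 the mean differences ranged from 2.87 to 3.62.

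**Figure D3:**
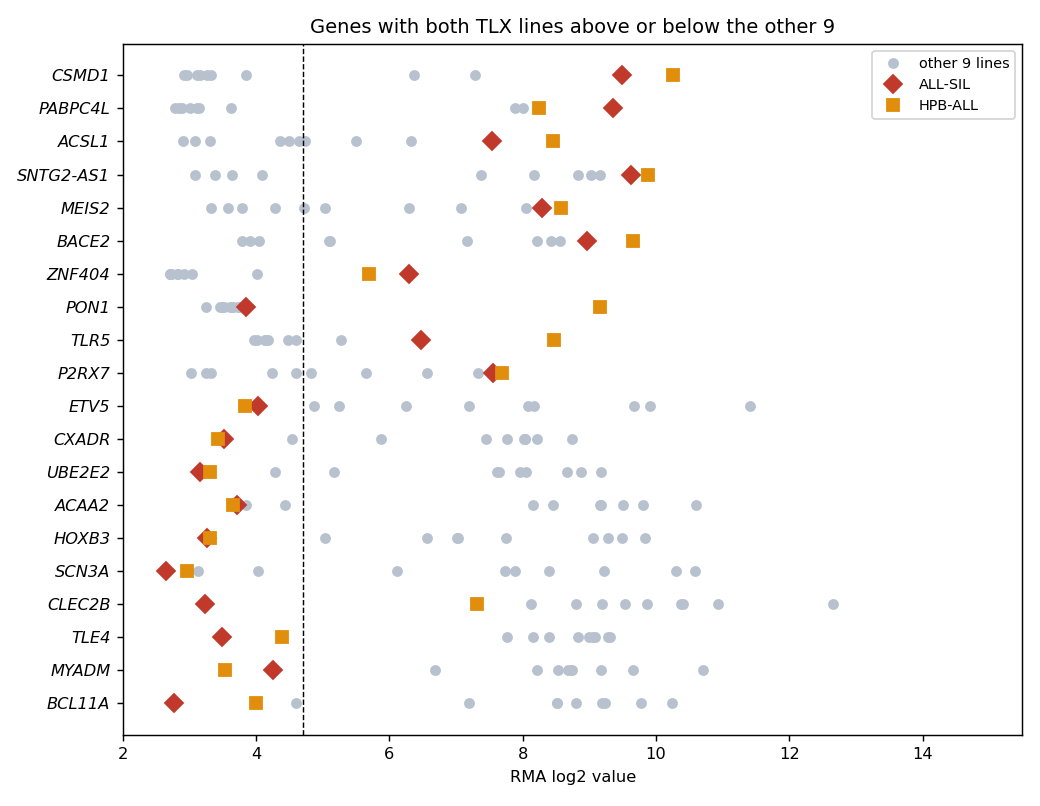
RMA log2 values (x-axis) of ALL-SIL (red diamonds), HPB-ALL (orange squares) and the other 9 lines (grey circles) for the 10 genes in each direction with the largest mean difference among genes at which both TLX lines lie above or below all others (y-axis), the dashed line being the median of the array medians. For CSMD1 the TLX lines lie at 9.49 and 10.25, and for BCL11A at 2.76 and 4.0.

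On the lower side, BCL11A, a zinc finger repressor known from B-cell development and globin switching, was at 2.76 in ALL-SIL and 4.0 in HPB-ALL. The other lines ranged from 4.59 to 10.24 (median 8.80), the lowest being close to HPB-ALL. The difference was −5.07 (SE 1.13, limma adjusted p = 0.69), with 4 of 4 probe sets lower in the mean of the TLX lines. At other BCL11A probe sets MOLT-14 was lower, at 4.52 against 4.81 in ALL-SIL and at 3.66 against 4.05 in HPB-ALL. MYADM, a membrane protein, was at 4.25 and 3.53 against 6.68 to 10.71 (median 8.73). Its difference of −4.90 (SE 0.73) had a limma adjusted p of 0.121, and of 0.0287 without SUP-T1. At the second MYADM probe set ALL-SIL, at 4.89, lay above SUP-T1 at 4.82. HOXB3, a member of the HOXB cluster, was at 3.26 in ALL-SIL and 3.31 in HPB-ALL, and at 5.03 to 9.84 in the others (difference −4.61, SE 1.07, limma adjusted p = 0.804). At its second probe set ALL-SIL was at 5.13, inside the 3.94 to 6.60 of the others, and HPB-ALL at 3.59. CLEC2B, a C-type lectin, was at 3.23 in ALL-SIL and 7.31 in HPB-ALL against 8.13 to 12.65, so that ALL-SIL made up most of its difference of −4.72. CXADR, an adhesion molecule known as a virus receptor, was at 3.52 and 3.42 against 4.54 to 8.74. The ETS factor ETV5 was at 4.03 and 3.83 against 4.87 to 11.41. At another ETV5 probe set ALL-SIL, at 4.42, lay above SUP-T1 at 3.97. UBE2E2, a ubiquitin-conjugating enzyme, was at 3.16 and 3.31 against 4.28 to 9.18. For ACAA2, an enzyme of mitochondrial fatty acid oxidation, and SCN3A, a sodium channel, the lowest other line was also near background, at 3.85 and 3.12. The second ACAA2 probe set read 5.60 in ALL-SIL, inside the 4.63 to 6.69 of the others. At the second SCN3A probe set both TLX lines, at 4.10 and 3.37, lay inside the 2.92 to 5.64 of the others.

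TAATTG was found in 6 of 193 promoters of genes with both TLX lines above the others (3.11%) and in 6 of 192 promoters of genes with both below (3.12%), against 5.58% of 15382 promoters of genes on the array and 7.58% of all 27305 promoters. TAAGTG was found in 12 of the 193 (6.22%) and in 5 of the 192 (2.6%), against 6.3% on the array and 8.15% of all. Both strands were searched, and the motifs share their first bases and do not coincide on a strand.

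Next, gene lists were examined by the counts of their members and their median difference, beside all 19775 genes, of which 9497 were higher and 10278 lower in the TLX lines. Apart from TLE4, no member of the 20 lists was called. Cortical thymocyte markers separated the TLX lines from each other. Of 19 measured markers 15 were higher and 4 lower, with a median difference of 0.74, but the median was 2.66 for HPB-ALL and −0.25 for ALL-SIL. Within the poly-A sets the medians were 3.04 for HPB-ALL and −0.77 for ALL-SIL. CD1E, a lipid antigen-presenting molecule of cortical thymocytes, was at 13.33 in HPB-ALL and 9.11 in ALL-SIL, and at 2.81 to 12.53 in the others. CD1B was at 12.85 in HPB-ALL, 8.92 in ALL-SIL and 3.32 to 12.04 in the others. HPB-ALL had the highest value of all 11 lines for CD1E and CD1B, and ALL-SIL lay inside the range. The coreceptor CD4 was at 10.34 in HPB-ALL and 8.78 in ALL-SIL (others 3.89 to 9.29), and CD8A at 11.11 and 8.08 (others 3.73 to 10.28). RAG1, the recombinase of receptor genes, was at 7.74 in HPB-ALL and 4.22 in ALL-SIL (others 2.75 to 11.26, median 7.73). DNTT, which adds bases at receptor gene junctions, was at 10.68 and 6.26 (others 3.16 to 12.60).

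**Figure D4:**
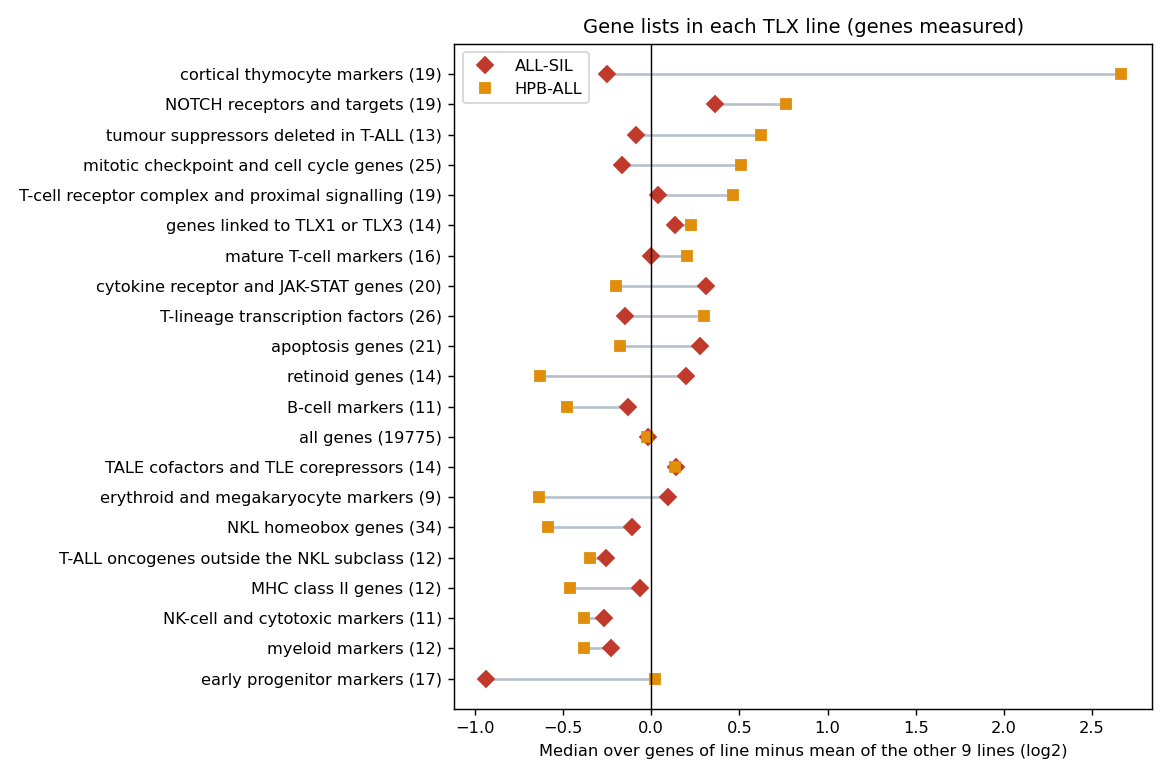
Median over the measured members of each gene list (y-axis, number of genes in parentheses) of the log2 difference (x-axis) between ALL-SIL (red diamonds) or HPB-ALL (orange squares) and the mean of the other 9 lines. The cortical thymocyte list parts the TLX lines furthest, with −0.25 and 2.66.

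In the T-cell receptor complex and its proximal signalling, 12 of 19 genes were higher and 7 lower (median 0.24), with CD6, a coreceptor of the T-cell synapse, at 9.34 in ALL-SIL and 9.39 in HPB-ALL against 8.38 to 9.05. PTPRC, the CD45 phosphatase that sets the threshold of receptor signals, was at 9.79 and 7.96 against 9.92 to 13.11. ALL-SIL lay close to the lowest of the others for PTPRC, and HPB-ALL was the lowest of all 11 lines. TRBC1, a constant region of the receptor beta chain, was at 10.03 in ALL-SIL and 13.89 in HPB-ALL (others 12.96 to 13.74). Mature T-cell markers numbered 16, with 10 higher and 6 lower (median 0.18). IL7R, the interleukin 7 receptor, was at 10.98 in HPB-ALL and 6.15 in ALL-SIL (others 4.36 to 9.13), and the activation marker CD69 at 7.30 and 2.64 (others 5.26 to 11.10). Early progenitor markers were higher in 5 cases and lower in 12 of 17 (median −0.50), with medians of −0.94 for ALL-SIL and 0.02 for HPB-ALL. SPINK2, a protease inhibitor of progenitors, was at 3.82 in ALL-SIL and 3.77 in HPB-ALL against 4.54 to 8.93. BAALC and FLT3, of the same list, were higher in the mean of the TLX lines. BAALC was at 3.71 in ALL-SIL and 6.24 in HPB-ALL (others 3.17 to 4.36), and FLT3 at 4.38 and 4.95 (others 3.36 to 4.49).

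Of 26 T-lineage transcription factors, 16 were higher and 10 lower (median 0.10). ETS2 was at 9.82 in ALL-SIL and 11.62 in HPB-ALL against 5.07 to 9.76, so that ALL-SIL passed the others by little. BCL11B, a factor of T-cell commitment at whose locus TLX3 is often rearranged, was at 11.69 in ALL-SIL and 11.03 in HPB-ALL, inside the 9.22 to 11.79 of the others. RUNX3 was at 9.14 and 10.20 (others 5.30 to 9.95). Of 12 measured T-ALL oncogenes outside the NKL subclass, 5 were higher and 7 lower (median −0.23). TAL1 was at 3.26 and 2.71 (others 3.23 to 10.74) and LMO2 at 3.52 and 4.05 (others 2.96 to 9.93, median 8.41). At another probe set of TAL1, ALL-SIL was at 5.40 and HPB-ALL at 4.43, both inside the 3.85 to 7.58 of the others. MYC was at 12.06 and 12.56 (others 3.38 to 12.82). Of 14 genes that the literature links to TLX1 or TLX3, 10 were higher and 4 lower (median 0.20). ASB2, a ubiquitin ligase subunit, was at 6.48 in HPB-ALL and 4.51 in ALL-SIL (others 3.55 to 4.73). The checkpoint kinase BUB1 was at 10.21 and 10.78 (others 8.27 to 10.32). PHF6 was lower in the mean, at 8.71 in HPB-ALL and 9.53 in ALL-SIL (others 9.26 to 10.17).

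NOTCH receptors and targets had 11 of 19 members higher and 8 lower, with a median difference of 0.59 that was positive in both lines, at 0.36 in ALL-SIL and 0.76 in HPB-ALL. NOTCH2 was at 10.29 in ALL-SIL and 10.01 in HPB-ALL against 7.38 to 9.26 (median 8.53), above every other line. The difference was 1.72 (SE 0.43, limma adjusted p = 0.951), with 1.81 and 1.74 within the poly-A sets and 4 of 4 probe sets higher in the mean. At other NOTCH2 probe sets ALL-SIL, at 4.73 and 7.83, lay below CML-T1 at 4.84 and 7.96. NOTCH3 was at 9.09 and 9.08 (others 3.20 to 9.76), and the ubiquitin ligase DTX1 at 10.36 and 9.28 (others 3.45 to 10.61), inside the range of the others. IGF1R, a growth factor receptor, was at 9.86 and 9.19 (others 6.29 to 9.54). HES4 was at 4.60 in ALL-SIL and 8.96 in HPB-ALL (others 3.40 to 10.51). ALL-SIL and HPB-ALL thus lay close together in NOTCH2 and NOTCH3 and apart in HES4.

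Cytokine receptor and JAK-STAT genes had 12 of 20 members higher and 8 lower (median 0.17). CISH and SOCS2, inhibitors that respond to STAT5, were at 11.03 and 10.31 in ALL-SIL and at 5.83 and 3.94 in HPB-ALL (others 6.17 to 11.26 and 3.62 to 10.62). STAT5A was at 7.41 in ALL-SIL and 4.82 in HPB-ALL (others 5.73 to 10.18). Retinoid genes had 8 of 14 higher and 6 lower (median 0.03). ALDH1A2, a retinoic acid synthesizing enzyme, was at 3.60 in ALL-SIL and 5.66 in HPB-ALL (others 4.24 to 12.11). Of 21 apoptosis genes, 12 were higher and 9 lower (median 0.05), with BMF, a BH3-only death gene, at 7.41 and 7.34 against 4.63 to 6.73, and BIRC5, which encodes survivin, at 11.24 and 10.62 against 9.43 to 10.43. Cell cycle genes had 19 of 25 members higher and 6 lower (median 0.30), with medians of −0.17 in ALL-SIL and 0.51 in HPB-ALL. Of 13 tumour suppressors 10 were higher and 3 lower (median 0.53). CDKN2A, an inhibitor of cyclin-dependent kinases, was at 10.60 in HPB-ALL and 5.66 in ALL-SIL (others 3.35 to 9.60), and its difference of 2.78 stood against −0.25 for ALL-SIL within its poly-A set.

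Markers of other lineages were counted in the same way. Of 11 B-cell markers 5 were higher and 6 lower, of 12 myeloid markers 2 and 10, of 11 NK-cell markers 2 and 9, of 9 erythroid and megakaryocyte markers 2 and 7, and of 12 MHC class II genes 3 and 9. The lowest of these medians was −0.38, for myeloid markers. The summed myeloid level was 47.56 in ALL-SIL and 43.94 in HPB-ALL, below the 48.39 to 55.77 of the others, with the defining markers LYZ (2.73 and 3.31) and MPO (4.03 and 3.59) near background. Of the 12 myeloid markers, only 2 in ALL-SIL and 1 in HPB-ALL were above the array median. In the others these numbered 2 (PEER) to 4 (LOUCY), so that the myeloid counts and sums mostly order low values. The summed B-cell level was 55.62 and 50.29 (others 50.30 to 70.61), and the summed NK-cell level 51.15 and 48.16 (others 46.95 to 72.60). MS4A1, which encodes CD20, was at 3.66 and 4.54. NKG7, a cytotoxic granule gene, was at 10.32 in ALL-SIL and 6.51 in HPB-ALL (others 3.60 to 11.41). Of the same list, GZMA and FCER1G were lower in the mean of the TLX lines. GZMA was at 3.26 and 3.59 (others 3.28 to 11.29), and FCER1G at 3.60 and 3.71 (others 3.32 to 7.68).

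Each TLX line was then set against all other 10 lines, with genes at least 2 units outside their range and no test. ALL-SIL had 2 such genes above (0.0101%) and 60 below (0.303%), and HPB-ALL 50 above (0.253%) and 39 below (0.197%). Without CML-T1 the genes above in ALL-SIL numbered 9, and against the lines with poly-A signal only 15. In the other lines the totals were 11 (CCRF-CEM) to 101 (CML-T1). L1TD1, an RNA-binding protein of pluripotent cells, was at 9.55 in ALL-SIL against at most 4.2 elsewhere, and TLX1 was the other gene above. The next widest gaps above were those of the transcription factor MAF (7.06 against at most 5.14), the phosphatase PTP4A3 (8.43 against 6.73), the cytokine TNF (8.26 against 6.62), the ephrin receptor EPHB1 (7.91 against 6.42), TNRC6C of the microRNA silencing machinery (10.52 against 8.98) and MRPL45P2 (4.73 against 3.11). ALL-SIL was above the other 10 lines at only 2 of 6 MAF, 2 of 3 PTP4A3 and 5 of 7 TNRC6C probe sets. Among genes below, RB1, the retinoblastoma suppressor of the cell cycle, was at 2.76 in ALL-SIL and at 9.35 to 10.98 in the other 10 lines. At its second probe set ALL-SIL was at 8.71, the highest of the 11 lines, so that the probe sets of RB1 disagree. GALNT1, which starts O-glycosylation, was at 2.82 (others at least 8.28), the prion protein gene PRNP at 2.92 (8.21), the kinase PDK1 at 2.66 (7.94) and B4GALT6, an enzyme of glycolipid synthesis, at 2.95 (8.21). HDHD5 at 4.03, SMIM20 at 3.31 and BEX3 at 3.63 followed, with others at least at 8.59, 7.70 and 7.88. For GALNT1, 4 of 5 probe sets were below the other 10 lines, and for B4GALT6 3 of 4.

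In HPB-ALL, KANK4, a regulator of the actin cytoskeleton, was at 12.01 against at most 4.58 in the other 10 lines. MYL11, a myosin light chain of fast muscle, was at 12.86 (others at most 5.99), and DOCK1, an activator of Rac, at 11.53 (4.64), although only 2 of 5 DOCK1 probe sets were outside the range. TUSC1 at 9.07 (3.55), BBOX1 of carnitine synthesis at 8.33 (3.58), SERTAD4-AS1 at 8.06 (3.52), CT75 at 8.61 (4.19) and PON1 followed. TUSC1, BBOX1, SERTAD4-AS1 and CT75 were near background in ALL-SIL. On the lower side, the peroxidase PRDX2 was at 4.41 against 10.94 to 12.33, with 3 of 4 probe sets outside. YBX3, a cold-shock protein that binds RNA, was at 3.11 (others at least 9.19), and SELENOK, a selenoprotein of the endoplasmic reticulum, at 3.59 (9.17). FBXO11, a ubiquitin ligase subunit, was at 3.06 (7.77), ZNF512B at 3.18 (7.89), NMRAL1 at 3.37 (7.77), FAM107B at 3.65 (8.03) and the synaptic scaffold gene HOMER1 at 3.02 (7.14).

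Some genes low in a single TLX line were neighbours in the RefSeq gene order of GRCh38.p14, a pattern looked for after the values were seen. Among the 60 genes below in ALL-SIL, 7 had another of them within 5 measured genes, in 4 pairs (CD69 and CLEC2B, RB1 and RCBTB2, SMOX and PRNP, PRNP and RASSF2). Among the 39 below in HPB-ALL, 8 had one, in 4 pairs (GSTM2 and GSTM1, EPOP and PCGF2, JUNB and PRDX2, MSH6 and FBXO11). In ALL-SIL the run from RB1 held LPAR6 at 2.95 (others 3.55 to 10.67) and RCBTB2 at 2.82 (others 6.83 to 13.27). On its sides ITM2B at 12.26 and MED4 at 9.13 were not low, nor was FNDC3A at 9.53 (others 7.95 to 9.82). The mismatch repair gene MSH6 was at 3.06 in HPB-ALL against 6.96 to 11.08, next to FBXO11, while MCFD2 at 8.14, TTC7A at 7.70 and FOXN2 at 8.84 lay inside the range of the others. DNA copy number was not measured in these data. In the other 9 lines the pairs per line and direction numbered 0 to 12, with 12 above in CML-T1.

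**Figure D5:**
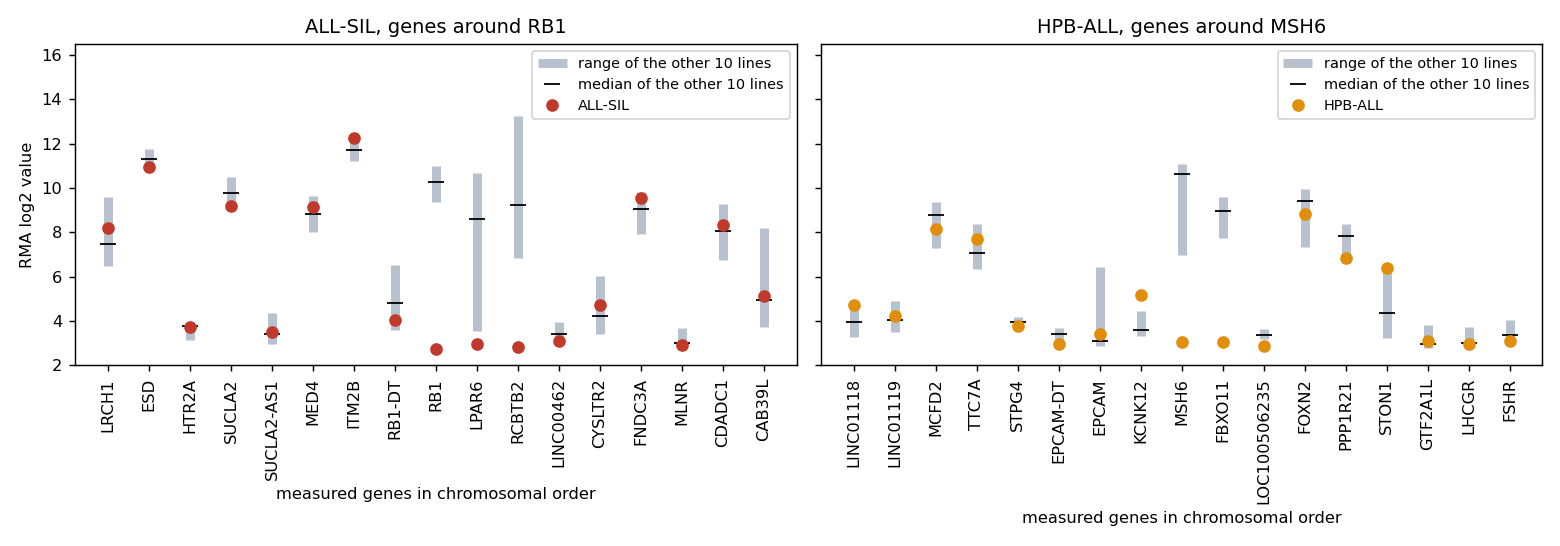
RMA log2 values (y-axis) of measured genes in chromosomal order (x-axis) around RB1 in ALL-SIL (left, red) and around MSH6 in HPB-ALL (right, orange), with bars for the range and dashes for the median of the other 10 lines. RB1, LPAR6 and RCBTB2 in ALL-SIL (2.76, 2.95 and 2.82) and MSH6 and FBXO11 in HPB-ALL (both 3.06) lie below the bars.

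Finally, the TLX lines were compared as whole profiles on the 16384 most variable probe sets (30%). Their Euclidean distance of 216.62 ranked 35 of the 55 pairs of lines from the closest (exact permutation p = 0.636, one-sided), where the pairs ranged from 152.21 to 245.67 with a median of 210.18. Centred within the poly-A sets, the pair ranked 20 of 55 (exact permutation p = 0.364, one-sided). ALL-SIL lay nearest to PEER (177.43), and HPB-ALL was the eighth nearest of its 10 neighbours. HPB-ALL lay nearest to CCRF-CEM (209.59), and ALL-SIL was the fifth nearest. ALL-SIL and HPB-ALL were thus not each other's nearest line.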

How the data were processed

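Total RNA of 11 T-ALL cell lines was hybridized to 1 array per line. Per the labels and methods, the authors extracted RNA with TRIzol and processed the images by RMA (affy and limma in R, versions not given in the sources used here), which subtracts background, quantile normalizes and summarizes each probe set. The deposited log2 values, from 2.24 to 14.57 with array medians of 4.63 to 4.78, were used without further scaling. The number of arrays limits the precision. Differences of values near background are compressed on this scale.

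The 62 control probe sets were left out, and limma 3.58.1 (R 4.3.3) was fitted to the other 54613 (2 lines against 9, no covariates, two-sided, Benjamini-Hochberg over all probe sets, threshold 0.05). Symbols came from the platform annotation, in which 41091 probe sets carry 1 symbol, 1801 several and 11721 none, and 19738 of the 19775 genes matched RefSeq. Other computations used Python 3.11.15. Distances, control probe sets and single-line counts were computed as described with the results, with exact permutation tests over all 55 pairs of lines. The 20 gene lists held 359 genes, of which 320 were measured, and some genes occur in several lists.

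Named were the TLX genes, standing-out NKL genes, called genes, the 10 genes in each direction with the largest mean difference among those outside the range of the other lines, 8 genes per direction for each TLX line alone, and list members outside the range or among the 3 smallest p of their list. Other list members and the neighbouring genes were chosen after their values were seen. The members and lists were chosen with earlier results of these data known. Genes of the Y chromosome, XIST and an item not reported here are not named.

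In simulated data with the same design, 95 of 200 probe sets with a log2 change of 2 were recovered (47.5%, 3 false calls). With a change of 4, 180 of 200 were recovered (90%, 13 false calls). The values were drawn independently from normal distributions with the fitted mean and spread of each probe set. Recovery may differ for genes that are high in some lines and near background in others. Alternatives covered the lines compared, poly-A sets, scaling, low values, variance models and probe sets per gene.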

Additional observations from a re-analysis of the deposited data

Results flagged for a closer look

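Among 75 named genes, 7 had 1 of the other 9 lines far from the other 8 by Dixon's criterion, which chance alone gives in about 1 of 20 genes. ZNF404 was at 4.01 in PEER, where the next line had 3.04. TGIF1 was at 4.09 in SUP-T1, the lowest, with the next at 5.74. PTPRC was at 13.11 in MOLT-16, above 11.46 in the next line. IL7R was at 9.13 in SUP-T1, above 6.71, and IL6ST at 3.05 in PEER, below 6.71. LOUCY had the highest values for CDKN2A (9.60, next 6.34) and ITGA2B (7.86, next 5.83).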

How the results depend on the processing

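No paired analysis was possible because every line belongs to a single group. In place of 4 called probe sets, limma called 7 against the other NKL-positive lines, 21 against the NKL-negative lines, 33 among lines with poly-A signal, 0 among lines without it (3570 at an unadjusted p under 0.05), 2 with probe sets above the median mean value only, 16 with floored values, 8 with an intensity trend and 2 with the mean over all probe sets of a gene. Leaving out 1 line gave 3 to 195, with 195 without ALL-SIL, 23 without HPB-ALL, 8 without LOUCY and 7 without PEER. The lone TLX line is then assumed to vary like the others.

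TLE4 remained called in 21 of 24 alternatives (limma adjusted p 0.00146 to 0.515), the called BMPR1B probe set in 20 of 21 (0.00014 to 0.412), ZNF404 in 18 of 23 (0.00126 to 0.443) and CLUHP3 in 19 of 24 (0.00326 to 0.534), all with the direction kept. Each lost its call among the lines without poly-A signal, where HPB-ALL meets 2 lines.

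In place of 507 genes outside the range of the other lines, 2860 were found against the NKL-positive, 1354 against the NKL-negative, 4455 among lines with and 13415 among lines without poly-A signal, and 824 with the poly-A term. Leaving out 1 line gave 590 to 4329, the highest without ALL-SIL and 3114 without HPB-ALL. Fewer lines widen this count by construction. For ALL-SIL alone 162 genes were found at 1 unit, 32 at 3 units and 36 with the mean over probe sets, against 62, and 62 to 76 with 1 line left out. For HPB-ALL alone 305 were found at 1 unit, 38 at 3 units and 611 against CML-T1 and MOLT-16 only, against 89, and 93 to 117 with 1 line left out.

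With 1 line left out, differences ranged from −4.61 to 0.443 for IL6ST, −0.073 to 0.987 for AURKB, −1.47 to 0.016 for CD22, −1.01 to 0.143 for S100A9 and −0.884 to 0.056 for HLA-DPB1, with the turn in direction without ALL-SIL for IL6ST and without HPB-ALL for the others. The direction also turned among lines with poly-A signal for AURKB (−0.184), CDKN2A (−0.249) and S100A9 (0.039) and among lines without it for ALDH1A2 (1.25). With 1 line left out the ACTB difference ranged from −0.10 to 0.28 and that of ribosomal RNA controls, −0.58 over all lines (exact permutation p = 0.6), from −2.07 to 0.90. Of the 20 list medians, 15 took both signs over the alternatives, by most for cortical markers (−0.77 to 3.04), by little for early progenitor markers (−1.51 to 0.02) and NKL genes (−0.62 to 0.06). The signs held for NOTCH genes (0.36 to 1.74), genes linked to TLX1 or TLX3, myeloid and NK-cell markers and MHC class II genes. Most myeloid markers lay below the array median in every line. The distance between the TLX lines had an exact permutation p above 0.05 in each alternative. The causes were not tested.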
